A study of Mus musculus with 8 samples.

Results

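The mitochondrial ribosomal proteins were examined in small intestinal crypts, the glands at the base of the villi where the stem cells of this epithelium divide. The genes were taken by name from the deposited table, as protein-coding records whose symbols begin with Mrpl or Mrps followed by a digit. This gave 78 genes of 55880 in the table, of which 49 carry large-subunit names (Mrpl) and 29 carry small-subunit names (Mrps). Another 5 records of such names are pseudogenes and were not included.

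The samples were 8 RNA libraries of C57BL/6N mice, 4 labelled wild type (WT) and 4 labelled miR-29ab1-/- (knockout, KO), which by the label lack the microRNA genes miR-29a and miR-29b-1. The series title places all 8 before irradiation, and neither group is labelled with a treatment. By its title the study asks how miR-29ab, by way of energy metabolism, affects the fate of these stem cells. The labels give no age, sex, litter, day or batch, so every p-value measures only the spread between these 8 libraries, which may be technical.

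Mitochondria carry their own ribosome, which makes the few respiratory chain proteins that the mitochondrial genome encodes. Its RNA core is transcribed inside the organelle, whereas its proteins are encoded in the nucleus, made in the cytosol and imported. Many of these proteins descend from bacterial ribosomal proteins, and others were added during mitochondrial evolution. Crypt stem and progenitor cells divide often, and their descendants become the absorptive and secretory cells of the villus.

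Total counts per library ran from 13879472 to 17368666. At the targeted locus, Mir29a was at 0 counts throughout, while Mir29b-1 was at 2 to 7 counts in the 4 libraries labelled knockout and at 0 in the 4 wild-type ones. The neighbouring noncoding RNA Gm27019 had 227 to 327 counts in the libraries labelled knockout and 0 in the wild-type ones. Lncpint, at the same locus, had 1831 to 2608 counts in the libraries labelled knockout and 11 to 16 in the wild-type ones. Counts from a hairpin that should be deleted go against the label at face value, and the source of these reads was not tested. Mature microRNAs are not measured in these libraries. The groups are therefore named by label, and every direction below is between labels. All 15 markers of crypt base stem cells and all 12 Paneth cell markers passed the filter on low counts, and markers of absorptive enterocytes, which line the villus, were present in all 8 libraries as well. KO replicate 4 stood apart from the other 7 libraries, so the main counts, list medians and named fold changes it moves are also given without it.

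Of the 78 genes, 76 passed the filter on low counts, 48 Mrpl and 28 Mrps genes, within 14897 genes tested. The other 2 were Mrpl53 and Mrps10. Mrpl53, a large-subunit protein (chromosome 6, 83109040 to 83109939), had 0 counts in every library, which allows up to 3 counts per library by counting error. Of its exonic bases, 88.0% are shared with Gm42688, a gene annotated on the same strand that had 231 counts over the 8 libraries. Mrps10, a small-subunit protein with a bacterial homologue (chromosome 17, 47368887 to 47381417), had 1 count, in WT replicate 2, and shares no exonic base with another gene. The level of these 2 genes is therefore not described further.

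Levels between genes were compared per length, as FPKM. The length is the count of all annotated exonic bases of a gene, such as 607 for Mrpl34 and 7326 for Mrpl33. The order of levels therefore depends on the annotation and is not a direct order of transcript numbers. Over the tested Mrpl and Mrps genes, the median of the wild-type means was 13.6 FPKM, compared with 5.63 FPKM over 12535 protein-coding genes tested. The wild-type means ran from 1.37 FPKM for Mrps23 to 85.4 FPKM for Mrpl34, a 62.2-fold range. The 10 genes at the top held 36.4% of the summed FPKM, and 17 genes held 50%. The order of levels was similar in every pair of libraries, with a rank correlation across the 76 genes of 0.952 to 0.993. Those points share gene lengths and annotation, so the correlation describes these libraries only.

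Large-subunit transcripts were the most abundant per length. Mrpl34, a small protein of bacterial descent in the large subunit, measured 70.9, 87.5, 95.3 and 87.9 FPKM in WT replicates 1 to 4 and 85.5, 89.7, 78.1 and 51.7 FPKM in KO replicates 1 to 4. Mrpl12, a stalk protein of the large subunit also described as a partner of the mitochondrial RNA polymerase, measured 80.4, 77.7, 84.2 and 89.2 FPKM in the wild-type libraries and 84.7, 70.2, 88.3 and 48.8 FPKM in the KO libraries. For both genes the ranges of the groups overlapped, and KO replicate 4 was the lowest library. Their wild-type means, 85.4 ± 10.3 and 82.9 ± 4.99 FPKM (SD, n = 4), differed by less than the spread between libraries. Mrpl54, a mitochondria-specific large-subunit protein, followed among the Mrpl genes with 44.8 ± 4.92 FPKM (SD, n = 4).

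Among the Mrps genes, Mrps21 (bS21m), a small-subunit protein with a bacterial homologue, had the highest level, at 50.2 ± 8.32 FPKM in the wild-type group (SD, n = 4). Mrps24, which measured 28.9 ± 2.99 FPKM, and Mrps12, a protein of the decoding centre, which measured 28.8 ± 1.87 FPKM, did not differ beyond their spread. At the low end, Mrpl33 measured 2.57 ± 0.287 FPKM and Mrpl48 3.55 ± 0.127 FPKM, both large-subunit proteins. Mrps30, which sits in the large subunit despite its name, measured 3.10 ± 0.491 FPKM. Mrpl33, Mrpl48 and Mrps30 have long annotated exons, 7326, 8152 and 6666 bases. Without division by length their wild-type means were 19.0, 29.2 and 20.8 CPM.

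**Figure D1:**
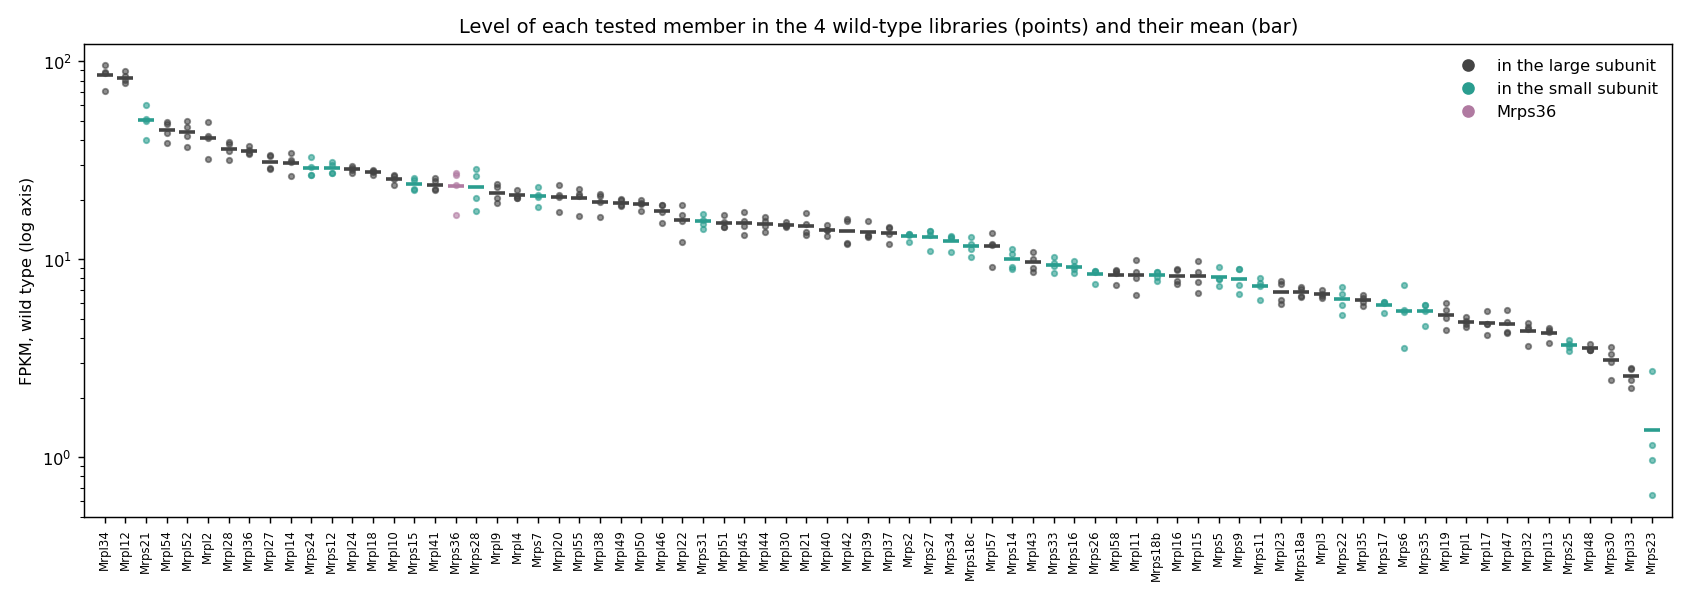
FPKM on a log axis for the 76 tested genes, ordered by the wild-type mean; points are the 4 wild-type libraries, bars their mean, and colours the subunit that holds the protein. Mrpl34 and Mrpl12 lie at the top near 85.4 and 82.9 FPKM, and Mrps23 lies at the bottom with widely spread points.

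Mrps23, a mitochondria-specific small-subunit protein, had both the lowest level and the widest spread. Its counts were 71, 16, 26 and 27 in WT replicates 1 to 4 and 40, 13, 130 and 25 in KO replicates 1 to 4. KO replicate 3 was the highest library and WT replicate 1 the next, so the groups overlapped throughout. Its coefficient of variation in the wild-type group was 67.8%, compared with a median of 9.56% over the tested Mrpl and Mrps genes.

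The median wild-type level was 15.2 FPKM over the Mrpl genes and 9.26 FPKM over the Mrps genes. Sorted by the subunit that holds the protein, the 50 large-subunit genes had a median of 15.0 FPKM and the 25 small-subunit genes 9.39 FPKM. Summed FPKM runs over these 50 and 25 genes, so a ratio of the sums also carries the unequal number of genes. That ratio, large over small, was 2.84 ± 0.0563 in the wild-type group and 2.84 ± 0.112 in the KO group (SD, n = 4 each). It was 2.73 in KO replicate 4, next to 2.76 in KO replicate 3 and 2.77 in WT replicate 4. Genes with a bacterial homologue (46) and mitochondria-specific genes (30) had medians of 13.9 and 13.6 FPKM. The second class as drawn here includes Mrps18b and Mrps36, whose places are described below. Mrps18b shares its bacterial descent with Mrps18a and Mrps18c, which were put in the first class.

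The comparison between the labels asked whether the mitoribosomal transcripts differ between wild-type and labelled knockout crypts. No Mrpl or Mrps gene passed the test in either direction (edgeR quasi-likelihood test, smallest adjusted p = 0.994), where 0.0201% of all tested genes were called. DESeq2 also called none of them, against 0.109% of the genes to which it gave an adjusted p. At an unadjusted p under 0.05, edgeR, DESeq2 and limma-voom each gave 1 gene, Mrpl39, which was lower in the libraries labelled knockout. By edgeR that unadjusted threshold was met by 0.832% of all tested genes in the lower direction and by 1.87% in the higher direction.

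The values leaned to one side without a single call. The log2 fold change was below 0, meaning lower in the libraries labelled knockout, for 67 of the 76 tested genes, 43 of 48 Mrpl and 24 of 28 Mrps. Over all tested genes 48% were below 0. The median log2 fold change was -0.14 over the 76 genes, -0.13 over the Mrpl and -0.14 over the Mrps genes, compared with 0.01 over all tested genes. Without KO replicate 4 the count was 47 of 76, compared with 51.5% of all tested genes, and the median was -0.02 over the Mrpl and Mrps genes together. By class, 28 of 48 Mrpl genes (median -0.02) and 19 of 28 Mrps genes (median -0.03) were then below 0. In bulk RNA such as this, fewer cells of a type and less RNA per cell cannot be told apart.

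No fold change of a single gene passed the test, and 30 of the 76 were larger in size than their own SE. They ran from -0.38 for Mrps27 to 0.63 for Mrps23 on the log2 scale, and 72 of the 76 lay within 0.3 of 0 in either direction. The value of Mrps23 was 0.82 without KO replicate 4 and -0.19 without KO replicate 3. The SE ran from 0.094 to 0.67, with a median of 0.16, and the largest was that of Mrps23. Counts of the tested genes were between 13 and 2311 per library.

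**Figure D2:**
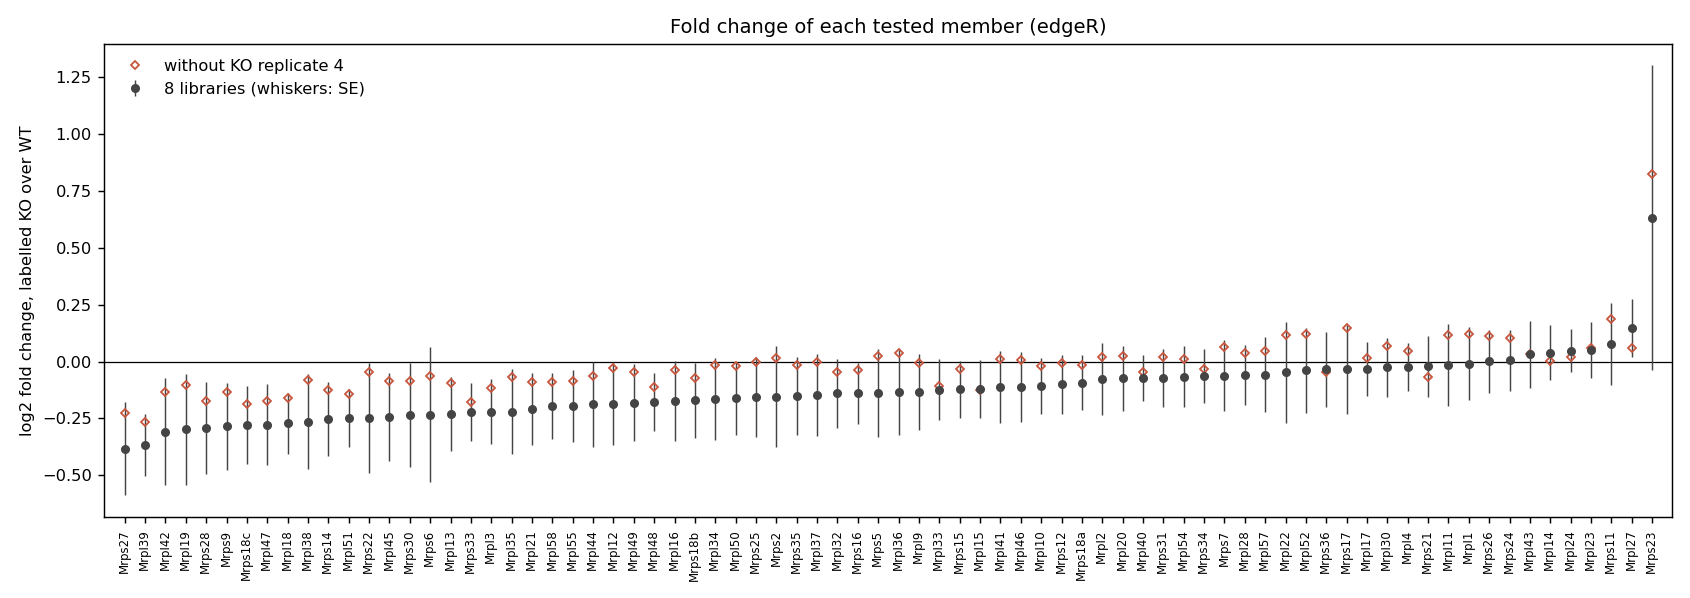
Log2 fold change of labelled KO over WT for the 76 tested genes in ascending order; filled points are the fit of 8 libraries with whiskers of 1 SE, and open points the fit without KO replicate 4. Most filled points lie below 0, from -0.38 at Mrps27, and the open points lie around 0 with 47 of 76 below it.

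The large-subunit genes at the lower end were led by Mrpl39. Mrpl39 (ENSMUSG00000022889, chromosome 16, 84717576 to 84735742, minus strand) encodes a mitochondria-specific protein of the large subunit. It measured 33.9, 33.5, 33.2 and 39.8 CPM in WT replicates 1 to 4 and 29.3, 27.4, 30.8 and 21.5 CPM in KO replicates 1 to 4. All 4 libraries labelled knockout lay below all 4 wild-type libraries, with KO replicate 4 lowest and WT replicate 4 highest. Its log2 fold change was -0.36 (SE 0.14, edgeR unadjusted p = 0.0245, adjusted p = 0.994), and -0.26 without KO replicate 4. It was the only Mrpl or Mrps gene in the authors' deposited heat map table of 670 genes, and the authors' deposited table gives it an unadjusted p-value of 0.0262 and an adjusted one of 1.00.

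A pair of further large-subunit genes had groups that did not overlap. Mrpl18 (chromosome 17, 12911349 to 12916345), a large-subunit protein with a bacterial homologue that binds 5S rRNA in bacteria, measured 39.7, 37.4, 40.1 and 39.1 CPM in the wild-type libraries and 32.7, 35.1, 36.9 and 24.7 CPM in the KO libraries. Mrpl51 (chromosome 6, 125191801 to 125196269), a mitochondria-specific large-subunit protein, measured 59.9, 59.3, 62.9 and 68.1 CPM and 53.7, 56.7, 59.1 and 41.1 CPM in the same order. In both genes KO replicate 3 came close below the lowest wild-type library, and KO replicate 4 was the lowest library. Their log2 fold changes were -0.27 (SE 0.13) and -0.25 (SE 0.13), both with an edgeR adjusted p of 0.994, and -0.16 and -0.14 without KO replicate 4. In all, 3 of 76 genes had every KO library below every wild-type library, where 0.618% of all tested genes did. None had every KO library above, where 0.913% of all tested genes did.

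Among the small-subunit genes, Mrps27 (chromosome 13, 99344786 to 99415562), a pentatricopeptide-repeat protein that binds RNA, measured 28.2, 29.3, 23.4 and 29.2 CPM in WT replicates 1 to 4. It measured 22.4, 19.1, 28.8 and 14.02 CPM in KO replicates 1 to 4. KO replicate 3 lay among the wild-type libraries, so the groups overlapped. The log2 fold change was -0.38 (SE 0.20, edgeR adjusted p = 0.994), and it was -0.23 without KO replicate 4. Of the exonic bases of Mrps27, 24.2% are shared with 6430562O15Rik on the opposite strand, a gene with 96 counts over the 8 libraries. No source used here says if the read counting was stranded.

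Further large-subunit genes at the lower end were Mrpl42, Mrpl19 and Mrpl47, which had log2 fold changes of -0.31 (SE 0.23), -0.30 (SE 0.24) and -0.28 (SE 0.18), and -0.13, -0.10 and -0.17 without KO replicate 4. Mrps28, Mrps9 and Mrps14, small-subunit proteins with bacterial homologues, had -0.29 (SE 0.20), -0.28 (SE 0.19) and -0.25 (SE 0.16), and -0.18, -0.14 and -0.13 without that library. Each of these 6 genes had overlapping groups and an edgeR adjusted p of 0.994. Mrpl19 shares 36.0% of its exonic bases with Gcfc2 on the opposite strand.

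At the upper end, Mrpl27, a large-subunit protein with a bacterial homologue (chromosome 11, 94653767 to 94660089), measured 33.9, 28.2, 33.0 and 28.7 CPM in the wild-type libraries and 34.3, 31.2, 31.2 and 40.5 CPM in the KO libraries. It was highest in KO replicate 4, the library in which most Mrpl genes were lowest, and its groups overlapped. Its log2 fold change was 0.15 (SE 0.13, edgeR adjusted p = 0.994) and 0.06 without KO replicate 4. Mrpl23, Mrpl24, Mrpl14 and Mrpl43 followed at 0.05, 0.05, 0.04 and 0.03, and at 0.06, 0.02, 0.003 and 0.03 without that library. Mrpl43 shares 33.4% of its exonic bases with Twnk on the opposite strand. Among the Mrps genes, Mrps11, Mrps24, Mrps26 and Mrps21 lay between -0.02 and 0.08, each with an SE of at least 0.13. Without KO replicate 4 they lay between -0.07 and 0.19.

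**Figure D3:**
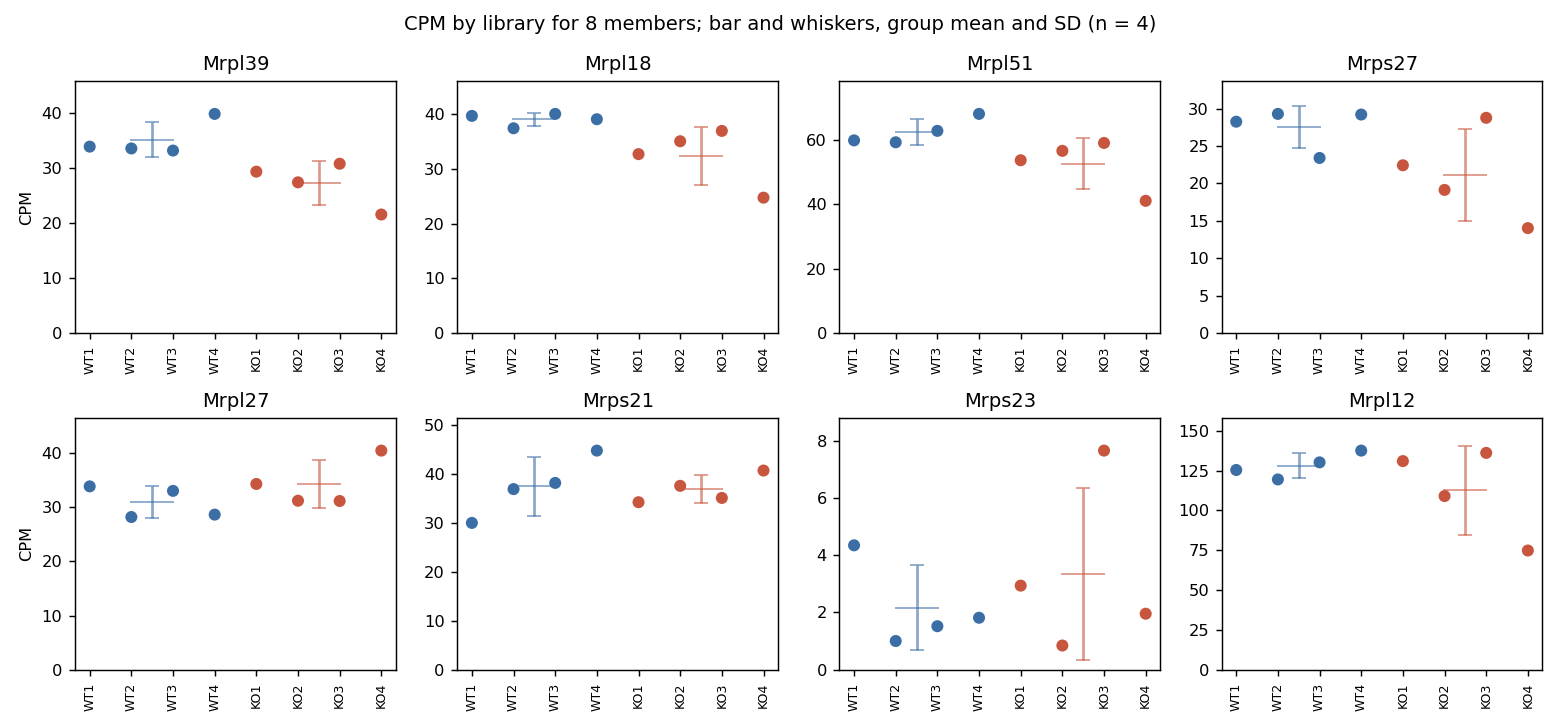
CPM on linear axes from 0 for 8 genes in each of the 8 libraries, with the group mean and SD (n = 4) as bar and whiskers; blue is wild type and red is labelled knockout. Mrpl39, Mrpl18 and Mrpl51 show no overlap of groups, Mrpl27 is highest in KO replicate 4 at 40.5 CPM, and Mrps23 varies most.

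Several genes do not sit where their names place them. The 3 Mrps18 paralogues descend from 1 bacterial protein; Mrps18c occupies its place in the small subunit, Mrps18b has its own site there, and Mrps18a lies in the large subunit. Their wild-type levels were 11.6 ± 1.12 FPKM for Mrps18c, 8.28 ± 0.435 FPKM for Mrps18b and 6.82 ± 0.390 FPKM for Mrps18a (SD, n = 4). This order held in each of the 8 libraries. Their log2 fold changes were -0.28 (SE 0.17), -0.17 (SE 0.16) and -0.09 (SE 0.12), each with an edgeR adjusted p of 0.994 and overlapping groups. Without KO replicate 4 the fold changes were -0.19, -0.07 and -0.01.

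Mrps36, named as a small-subunit protein and now known as a part of the 2-oxoglutarate dehydrogenase complex, measured 16.7, 26.6, 23.8 and 27.3 FPKM in WT replicates 1 to 4. It measured 25.5, 23.0, 19.8 and 23.8 FPKM in KO replicates 1 to 4, which is -0.03 on the log2 scale (SE 0.17, edgeR adjusted p = 0.994). Its lowest library was WT replicate 1, and KO replicate 4 lay within the range of the others. The fold change of Mrps30 was -0.23 on the log2 scale (SE 0.23) and -0.08 without KO replicate 4, and this gene was lowest in KO replicate 4 at 1.78 FPKM. Mrpl44, which resembles an RNase III enzyme, and Mrpl45, which lies by the exit tunnel towards the inner membrane, had wild-type levels of 15.1 ± 1.16 and 15.2 ± 1.75 FPKM (SD, n = 4). Their log2 fold changes were -0.19 (SE 0.19) and -0.24 (SE 0.19), and -0.06 and -0.09 without KO replicate 4. Neither fold change passed the test, and both groups overlapped.

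KO replicate 4 was the lowest of the 8 libraries for 64 of the 76 tested genes, 40 of 48 Mrpl and 24 of 28 Mrps. Over all tested genes it was the lowest for 29.1%. KO replicate 3, of the same group, was the highest library for 22 of the 76 and the lowest for 1. WT replicates 1 to 4 were the highest for 11, 10, 10 and 12. The share over all tested genes was not computed for the highest library. Among these genes, libraries labelled knockout were thus the most frequent at either end, KO replicate 4 as lowest and KO replicate 3 as highest.

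The mean log2 CPM over the 76 genes was 4.997, 4.92, 4.97 and 5.04 in WT replicates 1 to 4. It was 4.96, 4.84, 5.06 and 4.48 in KO replicates 1 to 4. The first 3 KO libraries ran from just below the wild-type range to just above it, and KO replicate 4 lay apart below. The group means were 4.98 ± 0.05 and 4.84 ± 0.25 (SD, n = 4 each), a difference of -0.14, and the difference was -0.03 without KO replicate 4. Summed over the 76 genes, KO replicate 4 had 1935 CPM, and the other 7 libraries had 2501 to 2824 CPM. Both subunits showed this, with 1347 CPM compared with 1732 to 1940 CPM for the Mrpl genes and 588 CPM compared with 769.9 to 894 CPM for the Mrps genes.

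The distance of KO replicate 4 from the median of the other 7 libraries differed between genes. Its median over the 76 genes was -0.53 on the log2 CPM scale, and 41 genes lay at least 0.5 below. Mrpl19 (-1.05), Mrps27 (-1.004), Mrps22 (-0.997) and Mrpl38 (-0.98) were farthest below. Mrps22 and Mrpl38 are mitochondria-specific proteins of the small and the large subunit. In contrast, 6 genes were at or above the median of the others, with Mrpl27 (0.37), Mrps21 (0.14), Mrpl14 (0.13) and Mrpl24 (0.11) the highest, and Mrps36 lay at -0.01.

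**Figure D4:**
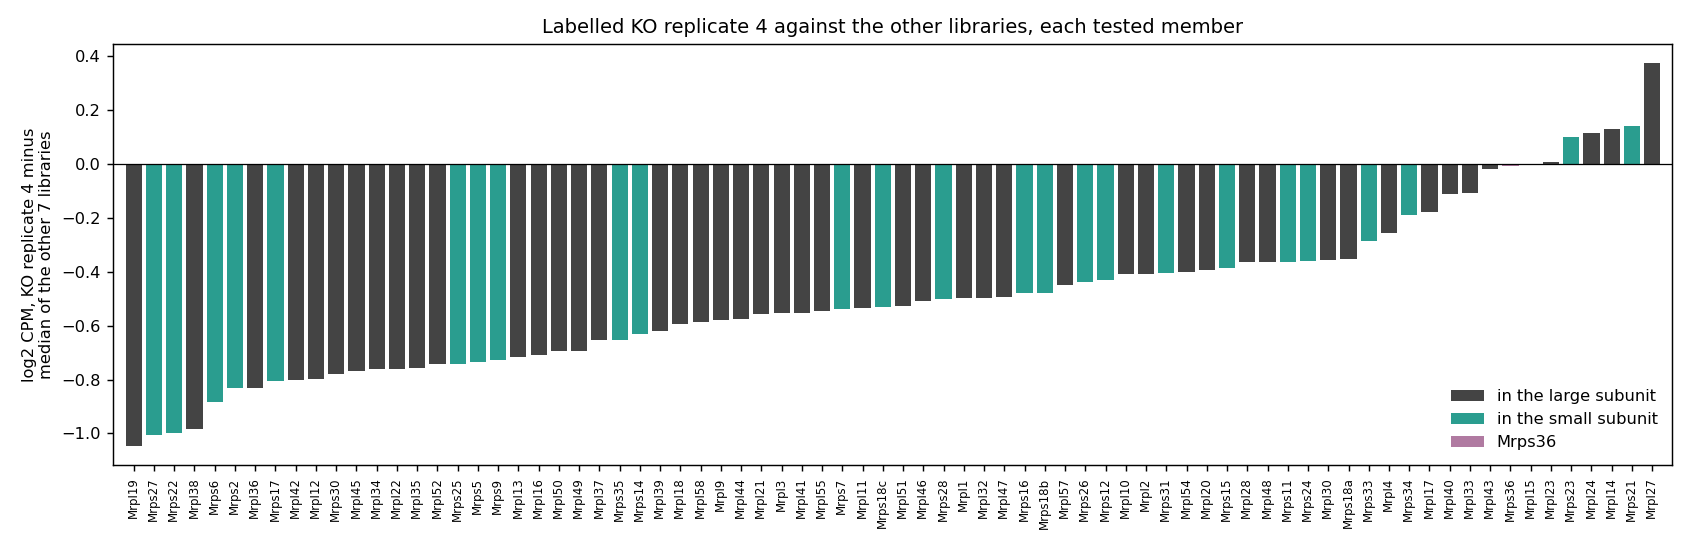
Log2 CPM of labelled KO replicate 4 minus the median of the other 7 libraries for each of the 76 tested genes, as bars from 0 coloured by the subunit that holds the protein. Both subunits are spread along the order, from -1.05 at Mrpl19 to 0.37 at Mrpl27.

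The same library stood apart in genes outside the mitoribosome. The 26 cell cycle genes had a mean log2 CPM of 4.87 in KO replicate 4 and 5.53 to 6.08 in the other 7 libraries, and KO replicate 4 was their lowest library in 24 of 26. Between the groups these genes were below 0 in 25 of 26, with a median log2 fold change of -0.30, and in 23 of 26 with a median of -0.10 without KO replicate 4. None passed the test (edgeR). The 15 markers of crypt base columnar stem cells summed to 1788 CPM in KO replicate 4 and to 2785 to 4750 CPM elsewhere. Between the groups these markers were above 0 in 11 of 15 (median 0.10). Without KO replicate 4 only 1 of 15 was below 0 (median 0.24). The 14 markers of absorptive enterocytes, all tested, summed to 78775 CPM in KO replicate 4 and to 14502 to 35930 CPM elsewhere. By group, the enterocyte sums ran from 18849 to 34664 CPM in the wild-type libraries and from 14502 to 78775 CPM in the KO libraries. KO replicate 3, which was the highest library for more mitoribosomal genes than any other, had the lowest enterocyte sum. The 12 Paneth cell markers were above 0 in 11 of 12 (median 0.58), and in 12 of 12 without KO replicate 4 (median 0.78). Their sums ran from 21251 to 28192 CPM in the wild-type libraries and from 19248 to 61524 CPM in the KO libraries. Red blood cell markers, 4 of 5 tested, had a mean log2 CPM of 3.28 in KO replicate 4 and -1.06 to 1.52 in the others. No marker of these lists passed the test (edgeR). The part of this mix of cells in the mitoribosomal values was not tested.

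**Figure D5:**
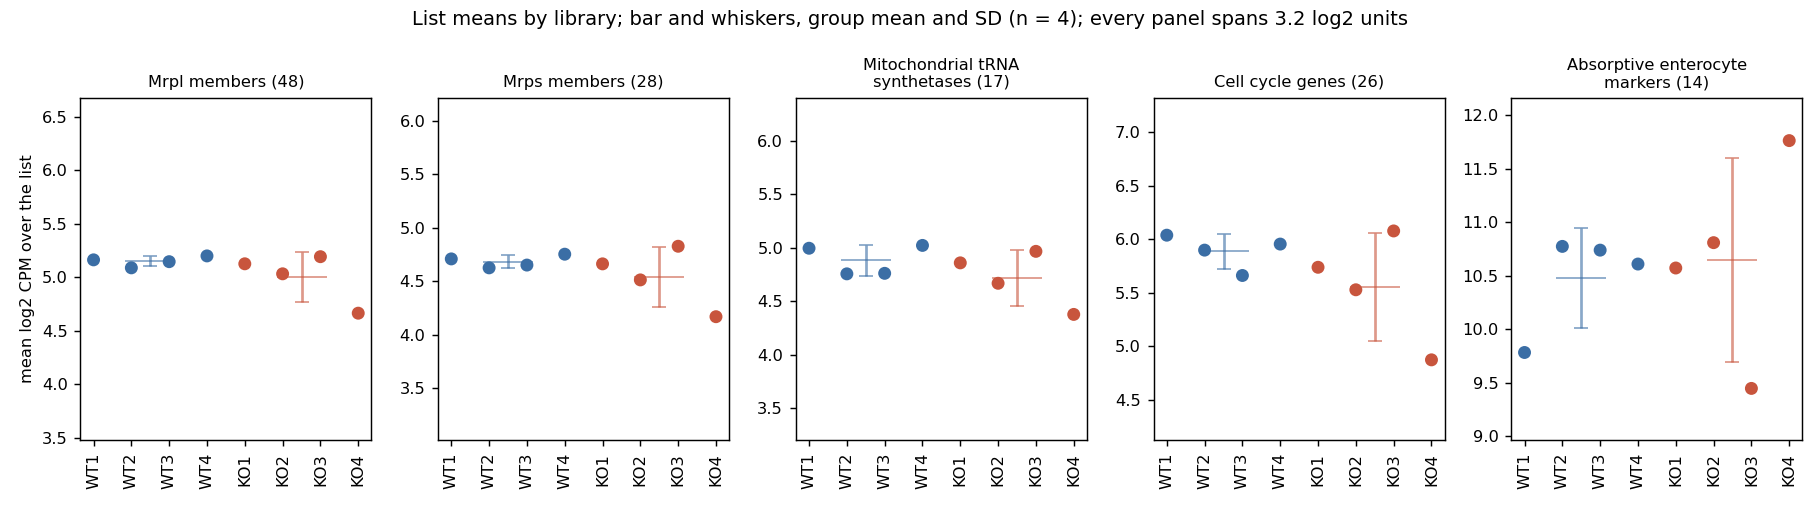
Mean log2 CPM over each of 5 gene lists in the 8 libraries, with group mean and SD (n = 4) as bar and whiskers; panels have equal spans so that heights can be compared. KO replicate 4 is lowest for the Mrpl, Mrps, tRNA synthetase and cell cycle lists and highest, at 11.76, for the enterocyte markers.

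Other genes of mitochondrial translation had values of the same size. Mitoribosomal proteins of other names, such as Dap3 and Ptcd3 of the small subunit, were below 0 in 5 of 5, with a median log2 fold change of -0.10. The 17 mitochondrial aminoacyl-tRNA synthetases, which charge the tRNAs of the organelle, were below 0 in 17 of 17, with a median of -0.15. Translation factors were below 0 in 12 of 14 (median -0.16), among them the elongation factors Gfm1 (-0.39, SE 0.19, and -0.25 without KO replicate 4) and Tufm (-0.31, SE 0.19, and -0.14 without it). Ribosome assembly factors were below 0 in 23 of 26 (median -0.11). No gene of these 4 lists passed the test in either direction (edgeR, adjusted p = 0.994 for those named), and without KO replicate 4 their medians were -0.04, -0.05, -0.09 and -0.03.

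The nuclear-encoded respiratory chain subunits, whose partners this ribosome makes, were below 0 in 64 of 71 with a median log2 fold change of -0.14. Here the median was -0.11 and the count 62 of 71 without KO replicate 4, which was the lowest library for 25 of the 71. None passed the test. Ndufb10, a complex I subunit, had -0.33 (SE 0.13, edgeR adjusted p = 0.994), and -0.25 without KO replicate 4. The regulators of mitochondrial biogenesis were below 0 in 6 of 13, with a median of 0.06, and in 4 of 13 with a median of 0.01 without KO replicate 4. The cytosolic ribosomal proteins, which belong to the other ribosome of the cell, were below 0 in 48 of 92 with a median of -0.01, and KO replicate 4 was the lowest library for 65 of the 92. Without KO replicate 4 they were below 0 in 18 of 92, with a median of 0.10. The genes of mitochondrial RNA synthesis and processing were below 0 in 14 of 19 (median -0.13, and 0.01 without KO replicate 4). None of these genes passed the test either (edgeR).

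The RNAs of the mitoribosome itself did not follow the protein genes in KO replicate 4. mt-Rnr1, the small-subunit rRNA, measured 714, 1189, 979 and 584 CPM in WT replicates 1 to 4 and 1095, 848, 483 and 2310 CPM in KO replicates 1 to 4. mt-Rnr2, the large-subunit rRNA, measured 1061, 2028, 1803 and 848 CPM and 1465, 1477, 676 and 2897 CPM in the same order. For both rRNAs KO replicate 4 was the highest library and KO replicate 3 the lowest, the reverse of the protein genes, and the groups overlapped. The log2 fold changes were 0.45 (SE 0.45) and 0.18 (SE 0.44), both with an edgeR adjusted p of 0.994, and they turned to -0.10 and -0.25 without KO replicate 4. Over the 15 mitochondrial genome transcripts the mean log2 CPM was likewise lowest in KO replicate 3, at 8.83. In KO replicate 4 it was 9.70, within the range of 8.83 to 10.21 of the other 7 libraries. The labels do not say how rRNA was handled when the libraries were made.

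The mitoribosomal genes were also read for sites of the microRNAs that the label names, because a microRNA of this family pairs through its seed with 3' UTRs. The mature sequences from RefSeq (GRCm38.p6) are shown with the seed, bases 2 to 8, in capitals; the seed is shared by both.
miR-29a-3p: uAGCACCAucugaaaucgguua
miR-29b-3p: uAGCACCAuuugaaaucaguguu
The 3' UTRs of 77 of the 78 genes were searched for the 7-base match TGGTGCT on the sense strand (GENCODE M21, GRCm38). It was found in 10 genes, 12.99%, and in 14.1% of the 20567 genes searched. The median longest 3' UTR was 390 bases in the mitoribosomal genes and 992 bases over all genes.

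The genes with a match were Mrpl1, Mrpl11, Mrpl32, Mrpl35, Mrpl37, Mrpl47, Mrps5, Mrps14, Mrps17 and Mrps35. Mrpl11 and Mrpl32 each had 2 matches. The windows below show both matches of Mrpl32, of which the one at chr13:14609277-14609283 is followed by an A in the transcript, as in the strongest class of microRNA sites. Those of Mrpl47 (chr3:32726464-32726470) and Mrps14 (chr1:160200149-160200155) are shown because these genes had the lowest log2 fold changes among the 10. The match is in capitals.
Mrpl32, minus strand, chr13:14610061-14610067: ttctttgtTGGTGCTttagaaca
Mrpl32, minus strand, chr13:14609277-14609283: ttttaaatTGGTGCTaaggaact
Mrpl47, minus strand: ttagaaggTGGTGCTttgtactc
Mrps14, plus strand: tgggtgccTGGTGCTggaggcca
A match describes the letters and does not show binding.

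Genes with and without a match had fold changes of similar size. The same seed is carried by miR-29c-3p, and miR-29b-3p is also encoded by Mir29b-2, both on chromosome 1. The label does not name these genes, so the comparison cannot show what loss of the seed would do. For those with a match the median log2 fold change was -0.14, compared with -0.13 over the 66 tested genes without a match. Values were below 0 in 10 of 10 genes with a match and in 57 of 66 without. They ran from -0.28 for Mrpl47 to -0.01 for Mrpl1. Without KO replicate 4 the medians were -0.01 and -0.03, and 6 of 10 and 41 of 66 were below 0. For Mrpl32 the value was -0.14 (SE 0.15, edgeR adjusted p = 0.994), and -0.05 without KO replicate 4. The wild-type levels of the 10 genes ran from 4.36 FPKM (Mrpl32) to 13.6 FPKM (Mrpl37). Their median was 6.05 FPKM, and that of the genes without a match was 15.0 FPKM. The length behind FPKM includes the 3' UTR, and the part of UTR length in this contrast was not tested.

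Promoters of the nuclear genes for mitochondrial proteins are known for GC-rich sequences with sites for ETS factors such as GABP, for NRF1 and for YY1. RefSeq promoter windows (GRCm38.p6), 250 bases before to 50 after each start, were matched for 69 of the 78 genes and searched on both strands. The ETS motif CCGGAAG was found in 26 of the 69 genes, 37.7%, and in 13.2% of protein-coding genes. The NRF1 motif GCGCATGCG was found in 7 genes, 10.1%, compared with 2.73%. The YY1 motif AAGATGGCG was found in 8 genes, 11.6%, compared with 2.22%. The E-box CACGTG, a site for factors such as MYC, was found in 5 genes, 7.25%, compared with 9.14%. In the windows of 31 genes none of the 4 letter strings occurred. The median GC content was 58.0% in the mitoribosomal windows and 56.7% over protein-coding genes.

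The stretch from 150 bases before to 30 after the RefSeq start is shown for the gene with the smallest p (Mrpl39), the gene with the lowest fold change (Mrps27) and the Mrpl gene with the highest fold change (Mrpl27). Motif letters are in capitals, and the RefSeq start of Mrpl39 lies inside the span that GENCODE gives the gene.
Mrpl39, minus strand, chr16:84735215-84735394: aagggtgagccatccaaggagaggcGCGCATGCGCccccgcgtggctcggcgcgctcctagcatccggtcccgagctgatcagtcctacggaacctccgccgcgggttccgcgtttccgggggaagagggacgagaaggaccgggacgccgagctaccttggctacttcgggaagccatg
Mrps27, plus strand, chr13:99344636-99344815: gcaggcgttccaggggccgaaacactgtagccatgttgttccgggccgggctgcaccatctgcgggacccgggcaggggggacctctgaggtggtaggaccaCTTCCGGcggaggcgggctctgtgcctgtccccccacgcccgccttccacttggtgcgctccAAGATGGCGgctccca
Mrpl27, plus strand, chr11:94653641-94653820: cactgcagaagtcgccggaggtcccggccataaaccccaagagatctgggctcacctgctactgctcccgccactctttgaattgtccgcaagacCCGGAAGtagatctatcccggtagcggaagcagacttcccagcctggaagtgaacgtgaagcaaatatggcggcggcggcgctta
The Mrpl39 window holds 2 overlapping NRF1 matches, 1 on each strand, and no ETS match. The Mrps27 window holds 1 ETS match, read on the opposite strand, and 1 YY1 match just past the start. The Mrpl27 window holds 1 ETS match as well.

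The fold changes of genes with and without a motif were close. The median log2 fold change was -0.14 for the 25 tested genes with an ETS match and -0.13 for the 42 without. It was -0.13 with and -0.14 without an NRF1 match, and -0.14 with and -0.13 without a YY1 match. Without KO replicate 4 the medians were -0.05 with and -0.01 without an ETS match, -0.02 with and without an NRF1 match, and -0.01 with and -0.02 without a YY1 match. The wild-type levels had medians of 9.64 FPKM with and 15.0 FPKM without an ETS match. KO replicate 4 differed from the median of the other 7 libraries by a median of -0.48 with an ETS match and -0.55 without one (log2 CPM). These are descriptions of overlapping sets and were not tested.

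The 78 genes lie on 17 chromosomes, with 11 on chromosome 11 and 8 on chromosome 17. Mrpl46 and Mrps11 form a head-to-head pair on chromosome 7 with annotated starts 412 bases apart, each inside the span of the other gene. They share 173 exonic bases, 12.2% of Mrpl46 and 8.0% of Mrps11. Their log2 fold changes were -0.11 (SE 0.15) and 0.08 (SE 0.18), or 0.005 and 0.19 without KO replicate 4, neither past the test (edgeR adjusted p = 0.994). Exonic bases were shared with another gene in 33 of the 78 genes, and the share was over 30% in 6, which include Mrps34 (77.8%) and Mrps25 (69.8%). The median log2 fold change was -0.12 in the 44 tested genes that share no exonic base and -0.17 in the 32 that do, and -0.01 and -0.05 without KO replicate 4.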

How the data were processed

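The authors deposited a table of whole-number counts per gene and library, FPKM values, group means, log2 fold changes and p-values, per the file headers. The submitters' processing notes name HISAT2 and DESeq2 and give no version of either. Which program counted the reads, with or without strand, on which annotation and build, is not stated there. TRIzol RNA went into a directional (strand-marking) library kit, per the labels' protocols. Dividing the counts by gene length and by 1 constant per library gave the deposited FPKM values exactly. The group means the authors deposited, on a signal scale, were left unused, and their deposited log2 fold changes and p-values appear only where named.

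The count test was the quasi-likelihood F test of edgeR 4.0.16 (R 4.3.3, robust fit), after filterByExpr and TMM scaling, with p-values adjusted by Benjamini and Hochberg's method over all tested genes and a threshold of 0.05. Each SE was computed as the absolute log2 fold change divided by the square root of F. CPM use TMM library sizes, and log2 CPM a prior count of 2. Alternatives were DESeq2 1.42.0, limma-voom (limma 3.58.1), RLE size factors, other filters, protein-coding genes alone, a replicate block and leaving out each library. The test was checked on simulated data. The coordinates of all 78 genes equal those of GENCODE M21 (GRCm38), and promoters and microRNAs are from RefSeq (GRCm38.p6).

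The members and gene lists were chosen with earlier results of these data known. Genes were named by rule: per class the 3 highest and 2 lowest levels and the 5 most positive and 5 most negative fold changes, genes past a threshold or in the authors' heat map table, genes whose groups do not overlap, genes of unusual place, and genes with a miR-29 match. Genes named beside KO replicate 4 and for shared exons were chosen after their values were seen. Markers of other cell types were not called either. No libraries agreed within sampling noise. Depth was 13879472 to 17368666 counts per library, and the floor of 3 counts for a count of 0 covers counting error only, since reads carry no molecular identifiers.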

Additional observations from a re-analysis of the deposited data

Results flagged for a closer look

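In 3 of 88 groups of 4 libraries examined, 1 library stood apart from the other 3 by Dixon's test, and chance gives about 1 in 20 groups. Mrpl39 measured 39.8 CPM in WT replicate 4 and 33.2 to 33.9 CPM in the other wild-type libraries. Mrps17 measured 35.1 CPM in WT replicate 3 and 39.8 to 39.9 CPM in the others. Mrps26 measured 32.8 CPM in WT replicate 2 and 38.01 to 38.8 CPM in the others.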

How the results depend on the processing

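No Mrpl or Mrps gene was called under any alternative run, and the smallest adjusted p of a named gene was 0.576, without KO replicate 3. The count of genes below 0 was 67 to 69 under DESeq2, limma-voom, RLE size factors, the other filters and protein-coding genes alone. These fits held 75 to 77 of the Mrpl and Mrps genes, 77 with DESeq2 and without a filter. The count was 47 to 70 of 76 when single libraries were left out, lowest without KO replicate 4. The median log2 fold change ran from -0.21 to -0.02 over the same omissions. Of 614 values of named genes under an alternative, 33 had the opposite sign, in 14 genes, Mrps26, Mrps24, Mrps21, Mrpl11 and Mrps36 most often. The cause was not tested.

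Same-numbered libraries had correlations of deviations from the group mean of 0.07, 0.03, -0.39 and -0.09, and the other pairs ran from -0.19 to 0.32. No pairing by replicate number was seen, but so few values cannot exclude one, and the labels state none. With the replicate number as a block, 0 genes were called, 69 of 76 were below 0, the median was -0.15 and the unadjusted p of Mrpl39 was 0.0668 (edgeR). Low counts, 13 to 130 per library, limit the precision of Mrps23.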
